A study of Homo sapiens with 6 samples.

Results

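The genes described here are 42 genes of cholesterol and fatty acid synthesis, chosen by name from the 36517 genes of the count table: 5 regulators, 19 genes of the sterol branch and 18 genes of the fatty acid branch. Their messenger RNA was compared between MDA-MB-453 breast cancer cells that carried a lentiviral hairpin against the small RNA tRF-1-Ser (shtRF, n = 3 libraries) and the same cell line with a negative-control lentivirus (control, n = 3 libraries), both at day 3. tRF-1-Ser is a tRNA-derived fragment from the 3′ trailer of a serine tRNA precursor, and the comparison asks which transcripts differ when it is knocked down. All 6 libraries came from cells kept in DMEM medium with 10% fetal bovine serum and transduced with a lentivirus, so both groups share the transduction and a serum supply of lipids. The paper describes the sequenced knockdown cells as stable, and the sample titles do not say what day 3 counts from. A single line was used, the promoter that drives the hairpin is not given in the sources used here, and the level of the hairpin's target could not be read from mRNA libraries. The paper checked the efficiency of its knockdown by qPCR. The paper calls the replicates biological without saying whether they were separate transductions, so p-values measure the spread between these 6 samples only.

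Cells make cholesterol and fatty acids from the same precursor, acetyl-CoA. Both branches are driven by the sterol regulatory element-binding proteins, transcription factors held in the endoplasmic reticulum by SCAP and the INSIG proteins while sterol is plentiful and released by proteolysis when it is scarce. SREBF2 encodes the form known mainly for the sterol genes, and SREBF1 encodes the forms of which SREBP-1c is known mainly for the fatty acid genes. Breast cancer cells of the luminal type are known for high fatty acid synthesis.

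Library totals lay between 63541413 and 78917459 counts, and no library stood apart from its group (Pearson r of log2 CPM over the tested genes 0.9973 to 0.998 within groups and 0.9878 to 0.9894 between groups). Levels are given as CPM, counts scaled to the library's effective total. Where genes are compared with each other, RPKM is given, which divides counts by exonic length and the plain library total. Changes between the groups therefore differ slightly between CPM and RPKM. Of the 13 luminal and MDA-MB-453 marker genes all were detected, with XBP1 at 6588 CPM and EPCAM at 504 CPM in control, although TFF3 (0.439 CPM) and PIP (1.04 CPM) were low there. The oestrogen receptor ESR1, CD44, VIM, PTPRC and PECAM1 were below 0.3 CPM in both groups, whereas COL1A1, which was listed among the genes to be absent, had 32.2 CPM in the control group and 20.9 CPM in the shtRF group.

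Of the 42 genes, 41 passed the filter on low counts, and 21 of these were lower and 4 higher in shtRF at an edgeR adjusted p under 0.05, while 16 did not pass. Over all 19628 tested genes 39.5% were called, 20.6% higher and 18.9% lower. Among the 8926 tested genes with a mean of at least 10 CPM, the abundance of most members, 56.4% were called, 31.6% higher and 24.8% lower, and of the 34 members at that abundance 3 were higher and 19 lower. The share of members called was thus near that of equally abundant genes, whereas most of the members' calls were falls. The median log2 fold change (shtRF minus control) of the 41 members was -0.26, beside -0.0025 for all tested genes. In 26 of the 41 all 3 shtRF libraries lay below all 3 control libraries and in 6 they lay above. Over all 19628 tested genes 4671 lay below and 4880 above, together 48.7%. Among the 8926 genes of at least 10 CPM 2530 lay below and 3133 above. Of the 34 members at that abundance 22 lay below and 5 above.

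The fall was unequal between the branches when weighed by reads. Summed over the 18 fatty acid genes, the control libraries held 2485, 2512 and 2408 CPM and the shtRF libraries 1066, 1070 and 1050 CPM. Summed over the 19 sterol genes, they held 938, 981 and 998 CPM in control and 874.2, 893.1 and 867.9 CPM in shtRF. The shtRF sum was therefore 0.430 times that of control in the fatty acid branch and 0.904 times in the sterol branch, and the groups overlapped in neither. Of the net loss of 1654 CPM over all members, 77.0% came from 2 genes, SCD and FASN. Without SCD, FASN and ACACA the fatty acid sum went from 671 ± 10.9 CPM (SD, n = 3) to 574 ± 4.26 CPM, a ratio of 0.854. These 3 genes were left out with their falls known, and no sterol gene was left out, so this ratio cannot be set against that of the sterol branch. By gene, 8 of the 19 sterol genes were lower and 3 higher with a median of -0.09, and 9 of the 18 fatty acid genes were lower and 1 higher with a median of -0.30. The branches overlap in role and regulation, and the difference between their medians was not tested. It depends on the processing. Under limma-trend on log2(RPKM + 1) the medians were -0.139 (sterol) and -0.16 (fatty acid). That scale shrinks the change of low genes and uses plain library totals. On log2(RPKM + 0.1) the medians were -0.145 (sterol) and -0.328 (fatty acid). For genes with under 10% exon overlap they were -0.194 (sterol) and -0.307 (fatty acid). That setting leaves out sterol genes with more overlap, such as HMGCS1 and FDPS. These are bulk libraries, in which fewer expressing cells and less RNA per cell cannot be told apart.

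**Figure D1:**
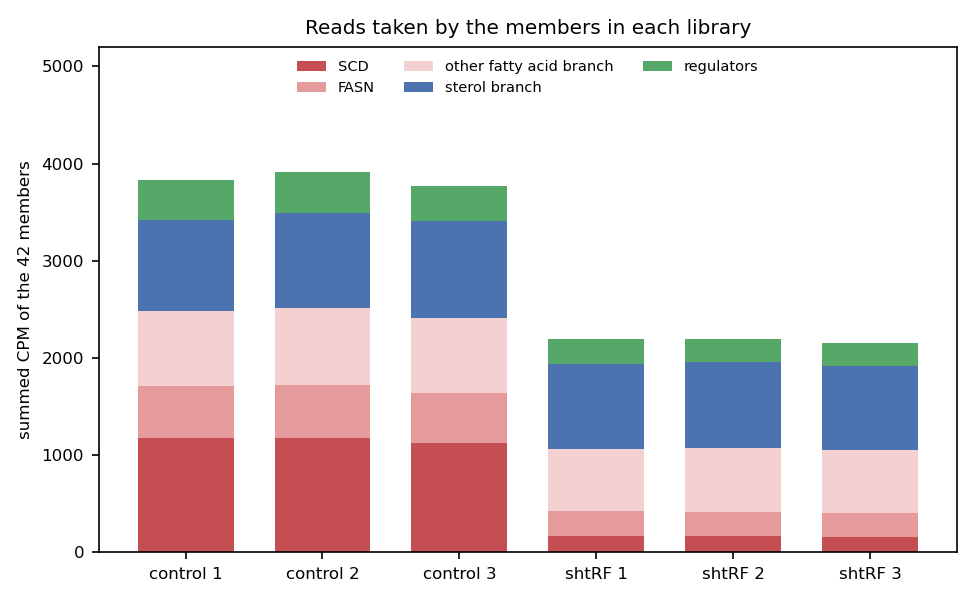
Stacked bars give the summed CPM of the 42 members in each of the 6 libraries, split into SCD, FASN, the other fatty acid genes, the sterol branch and the regulators. The control bars reach 3771 to 3912 CPM and the shtRF bars 2157 to 2200 CPM, and the SCD segment shrinks most while the sterol segment changes little.

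Among the regulators, all 4 that could be tested fell, and SREBF1 fell most. The control libraries held 220, 215 and 177 CPM of SREBF1 (chromosome 17, 17810399 to 17837002, minus strand, GRCh38) and the shtRF libraries 104, 91.3 and 88.4 CPM. The groups did not overlap, although control replicate 3 was the lowest of its group, and the level was 2.16-fold lower in shtRF (log2 fold change -1.11 ± 0.07 SE, edgeR adjusted p = 7.76e-11). SREBF2 went from 129, 136 and 121 CPM in control to 106, 103 and 106 CPM in shtRF, a smaller fall of 0.30 on the log2 scale (adjusted p = 0.000155). Per exonic length SREBF1 stood above SREBF2 in every control library, at a ratio of 1.49 ± 0.117, and below it in every shtRF library, at 0.846 ± 0.0658. The ratio was chosen after the values were seen and is a description. The SREBF1 counts do not separate its isoforms, and RAI1 exons on the other strand cover 6.92% of it.

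INSIG1, which retains the SREBP and SCAP complex in the endoplasmic reticulum and is itself a target of the pathway, was at 47.6, 54.0 and 53.2 CPM in control and at 33.6, 32.1 and 33.4 CPM in shtRF. All shtRF libraries were below all controls (log2 fold change -0.64 ± 0.06, adjusted p = 1.92e-08). SCAP, the sterol-sensing escort protein, was at 14.5, 13.9 and 13.5 CPM in control and 12.3, 10.6 and 11.9 CPM in shtRF. Its fall was slight (log2 fold change -0.27 ± 0.08, adjusted p = 0.0146), and without shtRF replicate 2 the adjusted p was 0.103. MLXIPL, the carbohydrate-responsive factor ChREBP, had 0 counts in every control library and 4, 2 and 4 counts in the shtRF libraries, too few to test and at about the 3 counts per library that a count of 0 allows.

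**Figure D2:**
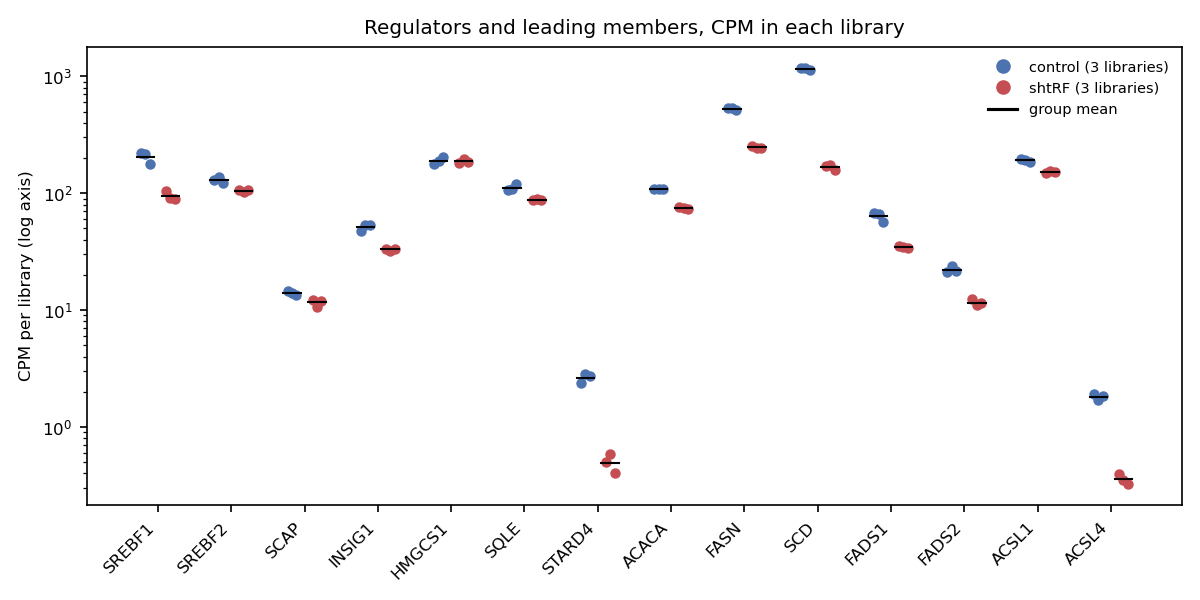
Points are the CPM of single libraries on a log axis, with 3 control and 3 shtRF libraries per gene and a bar at each group mean. The groups are apart for every gene drawn except HMGCS1, and the widest gaps are those of SCD, STARD4 and ACSL4.

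The fatty acid branch begins with the supply of acetyl-CoA. ACLY, which splits citrate to cytosolic acetyl-CoA, went from 130 ± 2.55 CPM to 119 ± 0.854 CPM with an adjusted p of 0.0457. This call did not hold under 7 of the 17 alternatives. Among them were the removal of control replicate 1 (0.0762), control replicate 2 (0.105), shtRF replicate 1 (0.0519), shtRF replicate 2 (0.129) and shtRF replicate 3 (0.135). ACSS2, which makes acetyl-CoA from acetate, went from 16.4 ± 0.294 CPM to 13.7 ± 0.934 CPM (log2 fold change -0.26, adjusted p = 0.01), and without shtRF replicate 2 its adjusted p was 0.0789.

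At the committed step, ACACA, the acetyl-CoA carboxylase that makes malonyl-CoA in the cytosol, was read at 109, 109 and 109 CPM in control and at 76.2, 74.2 and 73.2 CPM in shtRF. The replicates of each group were close together and the fall was clear of their spread (log2 fold change -0.55 ± 0.05, adjusted p = 1.59e-08). ACACB, the isoform bound to mitochondria, was low at 3.68 ± 0.66 CPM in control and 3.64 ± 0.243 CPM in shtRF and did not pass the test (adjusted p = 0.955). FASN, the synthase that builds palmitate from malonyl-CoA, was at 532, 537 and 514 CPM in control and at 251, 245 and 245 CPM in shtRF. Every shtRF library was below every control, 2.14-fold on average (log2 fold change -1.10 ± 0.05, adjusted p = 2.85e-13). Per length FASN was at 57.4 ± 1.69 RPKM in control and 25.9 ± 1.0 RPKM in shtRF.

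SCD, the stearoyl-CoA desaturase that makes oleate and palmitoleate from the saturated products of FASN, fell furthest. Control libraries held 1177, 1182 and 1122 CPM and shtRF libraries 170, 174 and 157 CPM. The groups were far apart against a spread of 33.5 CPM (SD) in control and 8.71 CPM in shtRF, and the level was 6.95-fold lower (log2 fold change -2.80 ± 0.06, edgeR adjusted p = 4.35e-19). By RPKM SCD was the 175th gene of the 19628 tested in control (220 RPKM) and the 1469th in shtRF (30.5 RPKM). Its loss of 993 CPM was the second largest of any tested gene, and by log2 fold change it ranked 3rd among falls of the 1954 genes with a mean of at least 100 CPM, where SREBF1 ranked 13th and FASN 14th. Under the 17 alternatives its log2 fold change stayed between -2.85 and -2.75. The SCD pseudogene SCDP1 took 0.00484% as many counts as SCD itself. SCD5, the other human stearoyl-CoA desaturase, was read at only 1.62 ± 0.112 CPM in control and 1.16 ± 0.145 CPM in shtRF, with an adjusted p of 0.067.

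The front-end desaturases FADS1 and FADS2, which insert double bonds into polyunsaturated chains and lie beside FADS3 on chromosome 11, fell by like amounts. FADS1 was at 67.4, 66.5 and 56.7 CPM in control and 35.1, 34.4 and 34.1 CPM in shtRF. FADS2 was at 21.3, 23.8 and 21.6 CPM in control and 12.3, 11.1 and 11.4 CPM in shtRF. Neither gene's groups overlapped, and the log2 fold changes were -0.88 ± 0.06 (adjusted p = 3.86e-10) and -0.94 ± 0.08 (adjusted p = 2.75e-09), the latter -0.59 on the log2(RPKM + 1) scale. The pair share under 5% of their exonic bases on opposite strands. FADS3 was low and did not pass (2.92 ± 0.566 CPM in control, 2.22 ± 0.0749 CPM in shtRF, adjusted p = 0.0607). Summed over the 5 desaturases of the list, the level went from 1251 ± 40.3 CPM to 216 ± 9.09 CPM.

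None of the 3 elongases on the list was called lower. ELOVL1, which extends saturated and monounsaturated very long chains, was the only fatty acid gene called higher, at 15.4 ± 1.46 CPM in control and 18.5 ± 1.06 CPM in shtRF (log2 fold change 0.26, adjusted p = 0.0133). The call did not hold under 5 of the 17 alternatives, with adjusted p up to 0.0979. Among them were the removal of control replicate 3 (0.0649), shtRF replicate 1 (0.0502) and shtRF replicate 2 (0.0727). ELOVL6, which extends palmitate to stearate, the substrate of SCD, was at 28.0 ± 3.63 CPM and 30.2 ± 0.747 CPM (adjusted p = 0.278). ELOVL5, an elongase of polyunsaturated chains, was at 61.4 ± 0.516 CPM and 59.5 ± 2.16 CPM (adjusted p = 0.549). Summed, the 3 elongases held 105 ± 2.76 CPM in control against 108 ± 1.88 CPM in shtRF.

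The acyl-CoA ligases, which activate free fatty acids, were uneven. ACSL4, known for its preference for arachidonate, was low in control at 1.91, 1.71 and 1.83 CPM and lower still in shtRF at 0.399, 0.35 and 0.322 CPM. The groups were 5.05-fold apart (log2 fold change -2.34 ± 0.25, adjusted p = 1.35e-07), at the few counts of a gene of this level, and on the log2(RPKM + 1) scale the change was -0.29. ACSL1, the abundant member, went from 194, 194 and 185 CPM to 149, 154 and 152 CPM, a log2 fold change of -0.33 ± 0.05 (adjusted p = 1.81e-05). ACSL3 was at 86.8 ± 5.52 CPM and 84.1 ± 0.584 CPM and did not pass (adjusted p = 0.551). At the entry to glycerolipids, the acyltransferase GPAM (13.5 ± 1.18 CPM and 13.6 ± 0.987 CPM, adjusted p = 0.982) and the phosphatidate phosphatase LPIN1 (33.4 ± 1.5 CPM and 30.2 ± 1.28 CPM, adjusted p = 0.0677) did not pass.

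**Figure D3:**
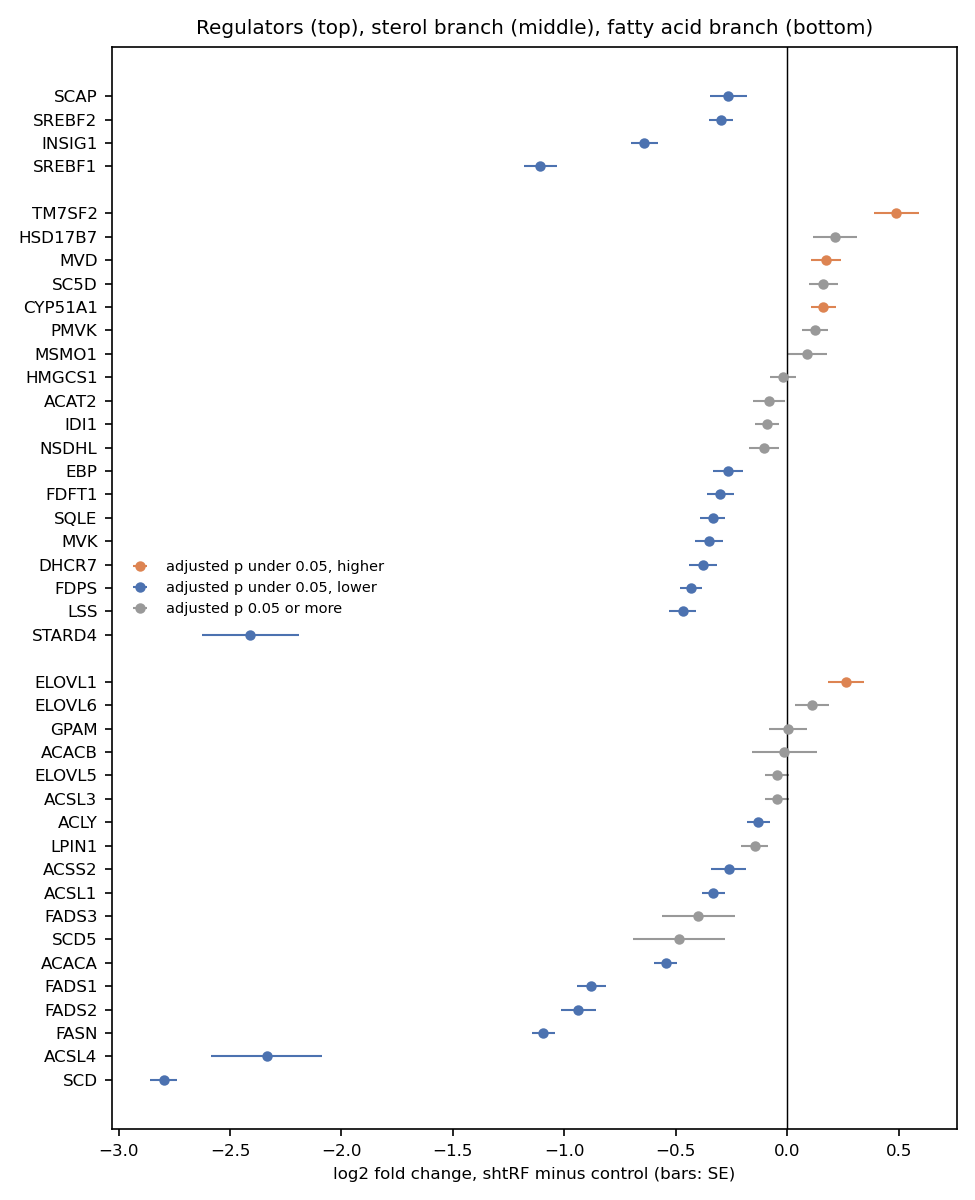
Points are edgeR log2 fold changes (shtRF minus control) of the 41 tested members with their SE, grouped as regulators, sterol branch and fatty acid branch, and coloured by whether the adjusted p was under 0.05. All 4 regulators lie below 0, the sterol genes spread on both sides apart from STARD4 at -2.41, and the fatty acid genes reach from 0.26 (ELOVL1) to -2.80 (SCD).

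In the sterol branch the first steps stayed nearly level. HMGCS1, which condenses acetoacetyl-CoA and acetyl-CoA to HMG-CoA and is a standard target of the pathway, was at 179, 188 and 203 CPM in control and at 180, 196 and 186 CPM in shtRF. The groups overlapped and the log2 fold change was -0.02 ± 0.06 (adjusted p = 0.829). Exons of CTD-2636A23.2 on the other strand, with a log2 fold change of 0.12, cover 14.95% of HMGCS1. The FASN to HMGCS1 ratio per length, chosen after the values were seen, was 1.40 ± 0.115 in control and 0.663 ± 0.037 in shtRF. ACAT2, the cytosolic acetoacetyl-CoA thiolase, was at 39.3 ± 3.59 CPM and 37.1 ± 2.89 CPM (adjusted p = 0.393), with 52.3% of its exonic bases inside exons of other genes, mostly SOD2.

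Of the kinases and the decarboxylase that follow, only mevalonate kinase fell. MVK was at 28.9, 28.6 and 28.9 CPM in control and 23.2, 21.6 and 22.9 CPM in shtRF, without overlap (log2 fold change -0.35 ± 0.06, adjusted p = 0.000126). PMVK, the phosphomevalonate kinase, was at 51.9 ± 0.866 CPM and 56.5 ± 3.47 CPM (adjusted p = 0.0924). MVD, the diphosphomevalonate decarboxylase, was called higher at 23.0 ± 1.0 CPM and 25.9 ± 1.24 CPM with an adjusted p of 0.048, and the call did not hold under 15 of the 17 alternatives, among them the removal of any library but shtRF replicate 1 (0.0572 to 0.185).

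The isoprenoid and squalene steps, from the joining of isoprene units to lanosterol, were lower in 4 of 5 genes, by small amounts. FDPS, which makes farnesyl diphosphate, went from 109, 109 and 111 CPM to 82.8, 80.4 and 80.2 CPM (log2 fold change -0.43 ± 0.05, adjusted p = 5.11e-07), and RUSC1-AS1, whose exons cover 18.6% of it on the other strand, had a log2 fold change of -0.52. SQLE, the squalene epoxidase, which is a rate-limiting step, went from 106, 108 and 119 CPM to 87.2, 89.1 and 88.0 CPM (log2 fold change -0.34 ± 0.06, adjusted p = 4.08e-05). LSS, which closes the rings of lanosterol, went from 74.2, 78.4 and 66.6 CPM to 53.7, 53.3 and 51.4 CPM (log2 fold change -0.47 ± 0.06, adjusted p = 1.92e-06). For all of these genes the groups were apart. FDFT1, the squalene synthase, fell as well, from 66.6 ± 4.58 CPM to 54.0 ± 2.63 CPM (adjusted p = 0.000359), while the isomerase IDI1 was at 71.3 ± 1.31 CPM and 66.9 ± 2.69 CPM (adjusted p = 0.189). Exons of IDI2-AS1 on the other strand cover 17.9% of IDI1. The 3 squalene genes summed to 251 ± 7.78 CPM in control and 195 ± 3.67 CPM in shtRF.

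After lanosterol the genes went both ways, 2 lower, 2 higher and 4 not called, and their sum was level at 205 ± 10.1 CPM and 205 ± 2.09 CPM. EBP, the sterol isomerase, fell from 29.7 ± 2.18 CPM to 24.7 ± 0.273 CPM (adjusted p = 0.00299). DHCR7, which makes cholesterol from 7-dehydrocholesterol, went from 33.0, 36.5 and 37.8 CPM to 27.0, 28.0 and 27.7 CPM, with no overlap (log2 fold change -0.38 ± 0.06, adjusted p = 6.03e-05). TM7SF2, a sterol C14-reductase, rose from 7.29, 5.95 and 7.21 CPM to 9.15, 9.63 and 9.88 CPM, also with no overlap (log2 fold change 0.49 ± 0.10, adjusted p = 0.000503). LBR, the inner nuclear membrane protein with the same reductase activity and no member of the 42, went the other way, from 114 ± 11.7 CPM to 67.2 ± 1.05 CPM (log2 fold change -0.77 ± 0.06, adjusted p = 2.27e-09). Per length the ratio of LBR to TM7SF2 was 10.9 ± 1.46 in control and 4.56 ± 0.25 in shtRF. This ratio pairs genes that moved in opposite directions and is only a description.

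CYP51A1, the lanosterol demethylase, was called higher at 62.0 ± 4.15 CPM and 69.4 ± 0.464 CPM (adjusted p = 0.0278). Exons of other genes cover 82.2% of it, chiefly LRRD1 on the same strand. The call of CYP51A1 did not hold under 9 of 16 alternatives, among them the removal of any 1 library other than control replicate 3 (adjusted p 0.0651 to 0.164). SC5D, the sterol desaturase, was at 25.01 ± 1.1 CPM and 28.0 ± 1.19 CPM (adjusted p = 0.0542), and HSD17B7, a sterol ketoreductase, at 7.77 ± 0.442 CPM and 9.0 ± 0.835 CPM (adjusted p = 0.0922). The HSD17B7 counts are uncertain, as its copy HSD17B7P2 took 15.3% as many counts and the treatment of reads that match both is not given in the sources used here. MSMO1 (13.6 ± 0.99 CPM and 14.5 ± 1.6 CPM, adjusted p = 0.48) and NSDHL (24.3 ± 0.49 CPM and 22.6 ± 1.09 CPM, adjusted p = 0.236), which remove the C4 methyl groups, did not pass.

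STARD4, a soluble carrier of cholesterol between membranes, had the largest change of the sterol branch at a low level. It was at 2.37, 2.85 and 2.71 CPM in control and 0.498, 0.583 and 0.403 CPM in shtRF. No library overlapped, and the level was 5.31-fold lower (log2 fold change -2.41 ± 0.22, adjusted p = 9.19e-09). The antisense gene STARD4-AS1, which shares 2.18% of the exonic bases, had a log2 fold change of -2.63. On the log2(RPKM + 1) scale the change of STARD4 was -0.44.

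**Figure D4:**
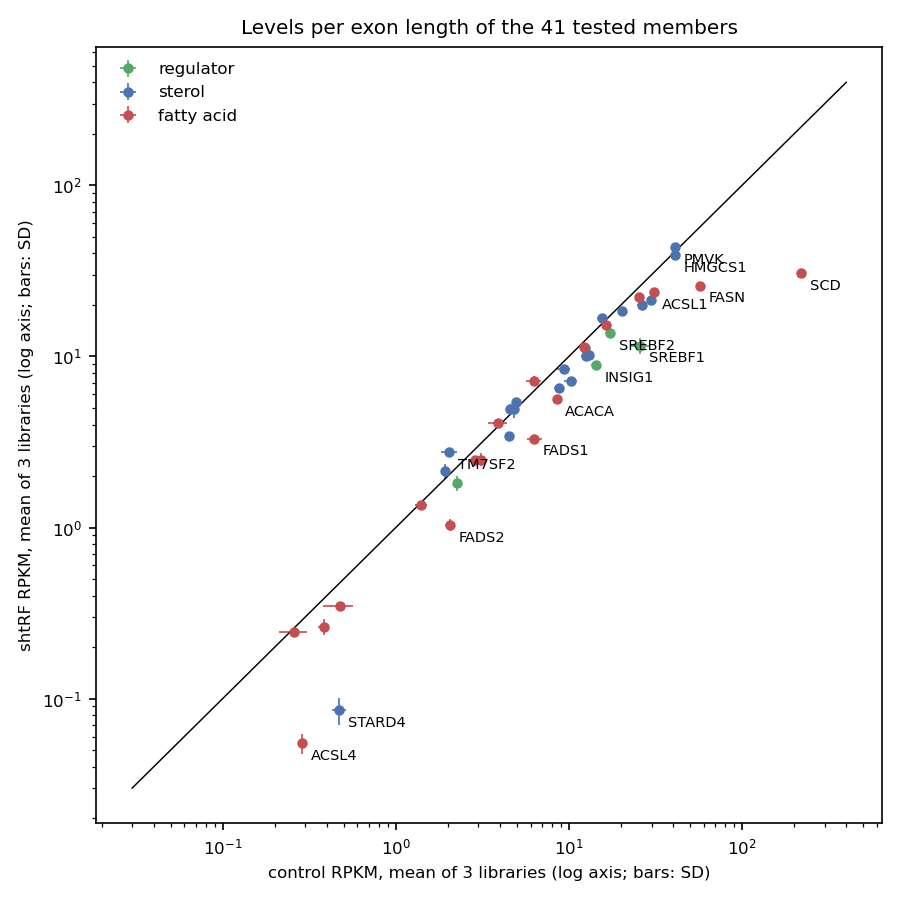
Each point is a tested member at its mean RPKM in control (x, log axis) and in shtRF (y, log axis), with SD bars over 3 libraries, and the line marks equal levels. SCD is the highest member in control at 220 RPKM and drops below HMGCS1 (39.1 RPKM) and PMVK (43.3 RPKM) in shtRF.

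The order of the levels changed at the top. In control SCD (220 RPKM) and FASN (57.4 RPKM) came first, then PMVK (41.2 ± 0.599 RPKM) and HMGCS1 (41.1 ± 2.47 RPKM), which did not differ beyond their spread. In shtRF PMVK (43.3 ± 2.02 RPKM) and HMGCS1 (39.1 ± 0.903 RPKM) came first, followed by SCD (30.5 ± 1.74 RPKM) and FASN. Over all members the 5 lowest in control were ACACB, ACSL4, SCD5, STARD4 and FADS3 among the tested genes, all under 0.5 RPKM.

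Promoters are shown for the 4 called members with the largest log2 fold changes whose window holds a searched motif, so that the members that moved most can be compared by sequence. The windows are from RefSeq on GRCh38.p14 and run from 250 bases before to 50 bases after the RefSeq start of the gene, 5′ to 3′ on the gene's strand, and 38 of the 42 members had a window. They are chr10:100346983-100347282 (plus strand) for SCD, chr5:111512486-111512785 (minus strand) for STARD4, chrX:109733208-109733507 (minus strand) for ACSL4 and chr17:17836937-17837236 (minus strand) for SREBF1. Capitals mark CCAAT, the NF-Y box, and GGGCGG, the GC box bound by Sp1, on either strand.
SCD: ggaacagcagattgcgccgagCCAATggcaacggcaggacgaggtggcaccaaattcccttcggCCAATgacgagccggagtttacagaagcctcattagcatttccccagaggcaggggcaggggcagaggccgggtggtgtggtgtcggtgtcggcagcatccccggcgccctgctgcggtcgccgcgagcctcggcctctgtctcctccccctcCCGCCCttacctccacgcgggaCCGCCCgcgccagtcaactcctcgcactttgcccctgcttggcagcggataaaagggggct
STARD4: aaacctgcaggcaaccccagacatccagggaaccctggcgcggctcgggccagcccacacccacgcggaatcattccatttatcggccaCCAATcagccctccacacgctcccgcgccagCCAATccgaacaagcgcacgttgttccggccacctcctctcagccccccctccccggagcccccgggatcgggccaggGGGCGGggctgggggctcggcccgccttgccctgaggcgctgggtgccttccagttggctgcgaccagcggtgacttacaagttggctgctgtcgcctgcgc
ACSL4: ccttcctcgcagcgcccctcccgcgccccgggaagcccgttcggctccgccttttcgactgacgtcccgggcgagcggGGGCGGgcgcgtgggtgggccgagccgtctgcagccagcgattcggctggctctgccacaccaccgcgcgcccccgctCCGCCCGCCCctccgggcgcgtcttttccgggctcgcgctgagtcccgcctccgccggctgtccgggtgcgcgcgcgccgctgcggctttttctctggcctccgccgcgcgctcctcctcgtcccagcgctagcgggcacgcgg
SREBF1: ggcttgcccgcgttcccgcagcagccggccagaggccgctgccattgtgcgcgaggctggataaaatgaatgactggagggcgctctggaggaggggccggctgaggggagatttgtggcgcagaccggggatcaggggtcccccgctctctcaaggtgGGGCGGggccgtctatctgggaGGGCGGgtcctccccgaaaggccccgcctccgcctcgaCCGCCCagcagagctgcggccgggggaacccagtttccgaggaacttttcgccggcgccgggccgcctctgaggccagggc

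The SCD window holds 2 NF-Y boxes, at bases 22 to 26 and 65 to 69 of the window, and 2 GC boxes on the minus strand. The STARD4 window also holds 2 NF-Y boxes, at bases 90 to 94 and 121 to 125, with a GC box at 199 to 204. The ACSL4 and SREBF1 windows hold 3 GC boxes each and no NF-Y box, and 2 of those in ACSL4 overlap by 2 bases. Motifs were read on both strands without mismatch, and no motif contains another. Over the 38 member windows, the NF-Y box was in 24 (63.2%), beside 35.7% of all 27305 RefSeq windows of the same length, and the GC box in 34 (89.5%), beside 44.6%. All RefSeq windows include those of genes that were not tested here, and no share among tested genes was taken. The higher shares therefore cannot be read as a trait of these pathways. By branch the NF-Y box was in 13 of 16 sterol windows and 9 of 17 fatty acid windows. The sterol regulatory element TCACNCCAC was in 1 of the 38, that of SREBF2, beside 1.15% of all windows, and the E-box CACGTG was in 5, those of SCAP, INSIG1, LSS, SC5D and ELOVL5, beside 7.43%. A match is only a match of letters in this window, and a site with other letters or outside the window was not counted. FASN, SQLE, FDFT1 and ACAT2 had no window and were not searched.

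Genes around the members went both ways. The share called in the lipid lists below ran from 34.8% (glycerolipid and lipid droplet) to 85.7% (other sterol synthesis). Over all tested genes it was 39.5%, and among those with a mean of at least 10 CPM it was 56.4%. The lists were not tested against these shares, so their counts are descriptions. Of 7 other sterol synthesis genes tested, 4 were higher and 2 lower, with a median log2 fold change of 0.20. Of 11 other genes of SREBP processing, 5 were higher and 1 lower with a median of 0.18. Among them were HSP90B1, an endoplasmic reticulum chaperone (log2 fold change 0.46), and TRIB1 (0.48). INSIG2, the paralogue of INSIG1 and named here after its value was seen, rose from 52.6 ± 2.83 CPM to 65.9 ± 4.4 CPM (log2 fold change 0.33 ± 0.06, adjusted p = 0.000174). Per length INSIG1 and INSIG2 were nearly equal in control (ratio 1.06 ± 0.067), and INSIG1 was at 0.544 ± 0.0239 of INSIG2 in shtRF.

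Sterol uptake and trafficking had 4 genes higher and 6 lower of 17 tested, with a median of 0.016. The lipoprotein receptors VLDLR (log2 fold change -1.59 ± 0.18) and LRP1 (-1.10 ± 0.08) fell and the sterol transporter GRAMD1B (1.32 ± 0.20) rose. Of 8 tested genes of sterol efflux and storage 3 were higher and 1 lower, the exporter ABCG1 at -0.77, while NCEH1, a cholesteryl ester hydrolase, was at 0.78 and SOAT1, which esterifies cholesterol, at 0.35. The genes of the isoprenoid branch outside sterol synthesis were split, 6 higher and 5 lower of 14, led by RABGGTA (0.53), DHDDS (0.52) and ZMPSTE24 (0.47).

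On the fatty acid side, NADPH, citrate and AMPK genes were 4 higher and 5 lower of 11. The called genes with the largest changes were THRSP (-1.93 ± 0.54, at 0.387 CPM in control), its homologue MID1IP1 (-0.65 ± 0.09), both known to act with acetyl-CoA carboxylase, and PRKAA2 (-0.81 ± 0.14), a catalytic subunit of AMPK. Of 8 other elongation and desaturation genes tested 3 were lower and 1 higher, with a median of -0.30. Those that fell were HACD1 (-1.10), HSD17B12 (-0.75), the ketoreductase of the elongation cycle, and DEGS1 (-0.65), the dihydroceramide desaturase. Of HSD17B12, 21.6% lies in exons of other genes. Glycerolipid and lipid droplet genes were 5 higher and 3 lower of 23, with GPAT3 at 1.35, DGAT2 at -1.21 and the fatty acid transporter CD36 at -2.26 on a few counts, with overlapping groups. Fatty acid oxidation had 6 genes higher and 8 lower of 23 with a median of -0.07, and PPARA (-1.06), HADH (-0.52) and PPARGC1A (-0.48) were the called genes with the largest changes.

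**Figure D5:**
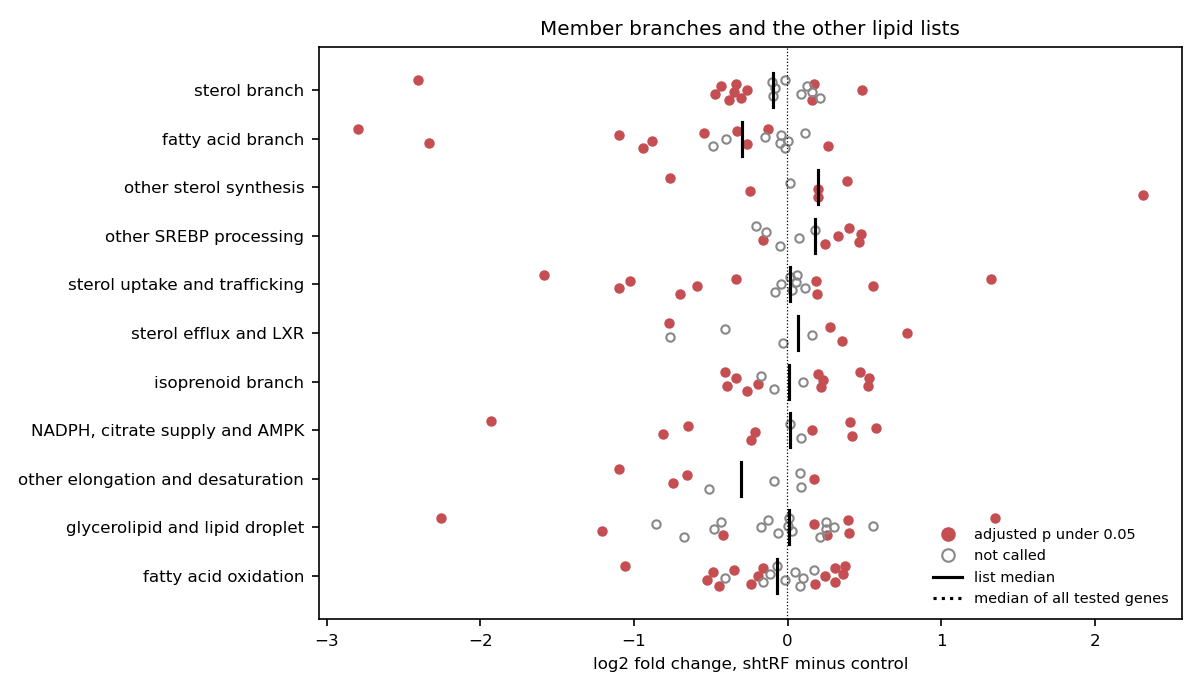
Each point is the edgeR log2 fold change (shtRF minus control) of a tested gene in the member branches and in 9 other lipid lists, filled where the adjusted p was under 0.05, with a bar at each list's median and a dotted line at the median of all tested genes. The fatty acid branch (median -0.30) lies left of most lists, as does the list of other elongation and desaturation genes (-0.30), and the other lists have medians between -0.07 and 0.20.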

How the data were processed

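Per the labels, stranded mRNA libraries of 6 samples were sequenced as read pairs. The submitters' processing notes name Trimmomatic 0.36, featureCounts of Subread 1.5.1, edgeR 3.12.1 and GRCh38, and the aligner is not given in the sources used here. The authors deposited raw counts per gene and a table of RPKM values, in which 100% of the values of 4991 genes equalled the count over exonic length and library total (tolerance 0.001), so RPKM of all genes was recomputed from the counts. Among counts of 1 to 4, 74.2% to 77.1% were even, as when both mates are counted, so low counts rest on fewer fragments.

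Counts were tested with edgeR 4.0.16 (R 4.3.3): filterByExpr (minimum count 10), TMM factors (0.961 to 1.03), the quasi-likelihood test with group as the only term, and Benjamini-Hochberg adjustment over 19628 genes, called at 0.05. On simulated counts, 200 of 200 changed genes were recovered among 19268, with 13 false calls. Recovery where 39.5% of genes change, the share called here, was not tested. Recovery was also not split by size of change. SE comes from the estimate and its F statistic, and SD is over 3 libraries. Alternatives used other scalings, filters, DESeq2 1.42.0, limma-trend 3.58.1, halved counts, the replicate block and leaving out a library. Same-numbered samples did not pair (correlations of deviations 0.017 to 0.059).

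The members and lists were chosen with earlier results of these data known. Named genes were all members and, from each other list, up to 3 called genes with the largest log2 fold changes, of which some are not reported here. Of 165 listed genes, 162 were in the table, 2 under an older symbol. Exon overlaps were taken from the deposited exon coordinates, and the counting is not stated to use strand, so overlapping genes may share reads.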

Additional observations from a re-analysis of the deposited data

How the results depend on the processing

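The falls of SREBF1, SREBF2, INSIG1, FASN, SCD, ACACA, FADS1 and FADS2 held under all 17 alternatives, and members called lower numbered 18 to 24. Of 692 member values under the alternatives, 617 kept direction and call, 38 lost a call, 17 gained one and 20 changed sign, all of the last in uncalled genes. Members called higher were 2 under upper quartile scaling, with no filter beyond 1 count, and for genes with under 10% exon overlap, and 1 under limma-trend with either pseudocount. Leaving out 1 library gave 1 to 4. The sterol median was -0.13 (-0.128) under upper quartile scaling, -0.139 and -0.145 under limma-trend with pseudocounts of 1 and 0.1, -0.194 for genes with under 10% exon overlap, and -0.127 to -0.0684 without 1 library. The fatty acid median was -0.334, -0.16 and -0.328 under the first 3 of these, -0.333 with the regulators counted with the branches, and -0.315 to -0.264 without 1 library. Calls over all genes were 3508 higher and 4174 lower under upper quartile scaling and 2900 and 3803 or 2903 and 3840 under limma-trend. With the replicate block 4 members were higher and 20 lower, ACLY losing its call (adjusted p = 0.0574). The cause of these shifts was not tested. GPAM, near 0, was at -0.0003 (RLE), -0.0333 (upper quartile), -0.0038, -0.0104 and -0.0158 (other filters), -0.0002 (DESeq2), -0.0275 and -0.0436 (limma-trend), -0.0095 (halved counts) and -0.0065 (low overlap), and at -0.0542 to 0.0763 without 1 library. Without 1 library HMGCS1 was at -0.0681 to 0.0313, ACACB at -0.1516 to 0.0901 and ACSL3 at -0.0974 to 0.0023. Under limma-trend with a pseudocount of 1, which shrinks the change of low genes, STARD4 was at -0.44, ACSL4 at -0.29 and FADS2 at -0.59, all still called.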
